A study of Homo sapiens with 6 samples.

Results

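The extracellular matrix genes described here, 44 in number, were read in H2122, an established human lung cancer cell line. They encode matrix glycoproteins, secreted and cell-surface proteoglycans, the hyaluronan receptor CD44 and the lysyl oxidases. The genes were chosen by symbol, with earlier results of these data known. All 44 were present among the 59050 symbols of the RNA-seq count files. One group of 3 libraries came from H2122 cells labelled as a SMARCA4 knockout, and the other group of 3 from the parental line, whose genotype is labelled WT. Both groups carried a vehicle treatment and were grown in RPMI-1640 with fetal bovine serum. The labels do not say how the knockout was made, or whether replicates were separate cultures. A p-value therefore covers the spread among these 6 samples only, and that spread may be technical. The titles of the 3 knockout libraries carry the same number 1 after the line's name, and those of the parental libraries carry 1, 3 and 6. What that number marks is not stated, and if it marks a clone, the knockout group is 1 clone.

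The extracellular matrix is laid down in layers with different chemistry. Fibrillins form microfibrils that carry elastin, fibulins and microfibril-associated proteins, and lysyl oxidases cross-link collagen and elastin once these are secreted. Proteoglycans are core proteins with long sulfated sugar chains: perlecan and agrin lie in the basement membrane under epithelia, versican and the small leucine-rich proteins in the stroma, and syndecans and glypicans on the cell surface, where their heparan sulfate chains bind growth factors. Carcinoma cells make part of this matrix themselves, and fibroblasts make much of the rest in a tumour.

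Reads assigned to genes numbered 55120937 to 59917980 per library, and the matrix genes took 0.259% to 0.425% of them. Levels are CPM, read counts scaled to library size, with TMM factors that correct for library composition. The limit set by 3 reads was 0.0497 to 0.0544 CPM in the different libraries, and limits and intervals of this kind cover counting error only. SMARCA4, the chromatin remodelling ATPase named in the genotype, stood at 20.7, 19.3 and 24.9 CPM across the knockout libraries and 231, 214 and 335 CPM across the parental ones. Parental replicate 3 stood apart from its group. The chi-square of the counts per degree of freedom was 8.22 between parental replicates 1 and 2 and 364 and 379 between each of these and parental replicate 3, where knockout pairs gave 5.55 to 20.6. Calls of the matrix genes that turn on that library are therefore given with and without it. The markers of carcinoma epithelium, EPCAM, CDH1 and 4 keratin genes, were read in all 6 libraries and summed to 3421, 3269 and 3155 CPM across the knockout and 6927, 7008 and 7696 CPM across the parental libraries. Of the 6, 5 fell, among them CDH1 by a log2 fold change of -5.94 (edgeR adjusted p = 5.53e-04), and KRT18 did not pass. Their part in the matrix results was not tested.

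Matrix genes moved in both directions. Of the 44 genes, 30 had enough reads to be tested, and 9 of these rose in the knockout, 8 fell and 13 did not pass (edgeR quasi-likelihood test, adjusted over 17809 genes, threshold 0.05). Over all genes tested, 13.3% rose and 14.3% fell, 27.6% in all, against 56.7% of the tested matrix genes. Of the 30, 22 had no overlap in CPM between the groups, or 73.3%, beside 49.8% of all genes tested. The matrix genes, their roles and the related lists below were chosen with earlier results of these data known. Such shares are therefore no independent evidence, and each role holds only 2 to 8 tested genes. The median log2 fold change of the 30, knockout less parental, was 0.25, and that of all genes was 0.02. In the fit without parental replicate 3, 12 rose, 12 fell and 6 did not pass, where 30.8% of all genes rose, 30.8% fell and 61.6% changed in all. Without knockout replicate 3, 9 rose and 5 fell. Over all genes, 4912 changed with all libraries, and 2692 to 11325 when a library was left out. The 17 genes that passed with all libraries passed in the same direction without parental replicate 3, and 7 passed only without it. RNA was taken from bulk cells, so fewer cells with a transcript and less of it per cell cannot be told apart.

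**Figure D1:**
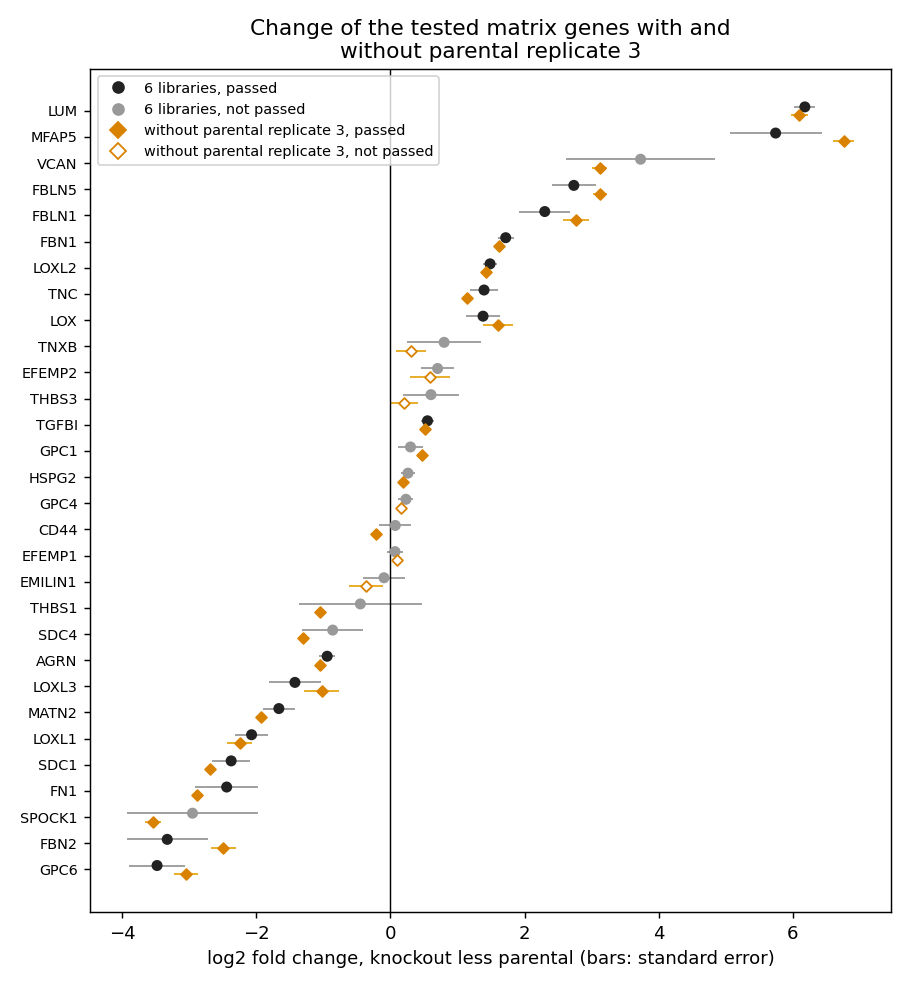
Each row is 1 of the 30 tested matrix genes and the x axis gives the log2 fold change (knockout less parental), with the standard error as a bar. Circles are the fit of all 6 libraries and diamonds the fit without parental replicate 3. The widest bars are those of VCAN, SPOCK1 and THBS1, whose standard errors of 1.11, 0.97 and 0.92 shrank to 0.11, 0.12 and 0.05 without that library.

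Among the elastic fibre and microfibril genes, 4 of 8 tested rose, 1 fell and 3 did not pass, with FBN1, MFAP5, FBLN1 and FBLN5 rising and FBN2 falling. That is 62.5% called, beside 27.6% of all genes. MFAP5, a microfibril-associated glycoprotein (chromosome 12, 8637346 to 8662888 on GRCh38, as all gene positions here, from GENCODE 29), stood at 40.0, 39.3 and 36.2 CPM in knockout replicates 1 to 3 and 0.210, 0.469 and 1.48 CPM in parental replicates 1 to 3. Every knockout library was above every parental one, and parental replicate 3 was the highest of its group. MFAP5 rose by a log2 fold change of 5.74 (SE 0.69, edgeR adjusted p = 0.00191), a 53.5-fold change that became 108-fold without parental replicate 3. FBN1, fibrillin-1, the main backbone of microfibrils (chromosome 15, 48408306 to 48645849), was measured at 34.4, 34.9 and 31.7 CPM across the knockout libraries and 11.2, 10.1 and 9.40 CPM across the parental ones. The libraries of each group lay close together and the groups did not overlap, with a log2 fold change of 1.72 (SE 0.12, edgeR adjusted p = 2.15e-04). FBN2, the fibrillin known mainly from development, went the other way, at 0.459, 0.490 and 0.381 CPM in knockout replicates 1 to 3 and 2.38, 2.44 and 8.56 CPM in parental replicates 1 to 3 (chromosome 5, 128257909 to 128659185). It was low in all knockout libraries and highest in parental replicate 3. Its fall of 10.0-fold (log2 fold change -3.33, edgeR adjusted p = 0.00937) became 5.62-fold without that library, and it did not pass without knockout replicate 3 (edgeR adjusted p = 0.0546).

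The fibulins, glycoproteins that link elastin to microfibrils and to the basement membrane, differed among themselves. FBLN5, which is needed for elastic fibre assembly, stood at 16.5, 17.4 and 16.2 CPM across the knockout libraries and 2.08, 1.62 and 3.81 CPM across the parental ones (chromosome 14, 91869412 to 91947987). Parental replicate 3 was again the closest to the knockout, without overlap, and the gene rose (log2 fold change 2.73, SE 0.33, edgeR adjusted p = 0.00204). FBLN1 was lower in level, at 4.13, 3.68 and 3.23 CPM in knockout replicates 1 to 3 and 0.473, 0.569 and 1.20 CPM in parental replicates 1 to 3, and also rose (log2 fold change 2.30, edgeR adjusted p = 0.00643). EFEMP1, or fibulin-3, was the most abundant gene of this group in the parental line per kilobase of exon, at 9.31 ± 0.877 CPM per kb (SD, n = 3), and did not pass. Its level was 37.1, 41.4 and 37.6 CPM across the knockout libraries and 35.0, 34.8 and 40.9 CPM across the parental ones, which overlapped (log2 fold change 0.07, SE 0.11). EFEMP2 and EMILIN1, a fibulin and an elastin-interface protein, stayed under 1 CPM in every library and did not pass either, at log2 fold changes of 0.70 and -0.10 (edgeR adjusted p = 0.0802 and 0.852). ELN, the gene of elastin itself, had at most 2 reads in any library, and MFAP4 and FBLN2 also had at most 2. MFAP2, the partner of MFAP5 on fibrillin, had no read over the knockout group and 9 over the parental group, a ratio of knockout to parental whose upper 95% counting limit is 0.512.

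**Figure D2:**
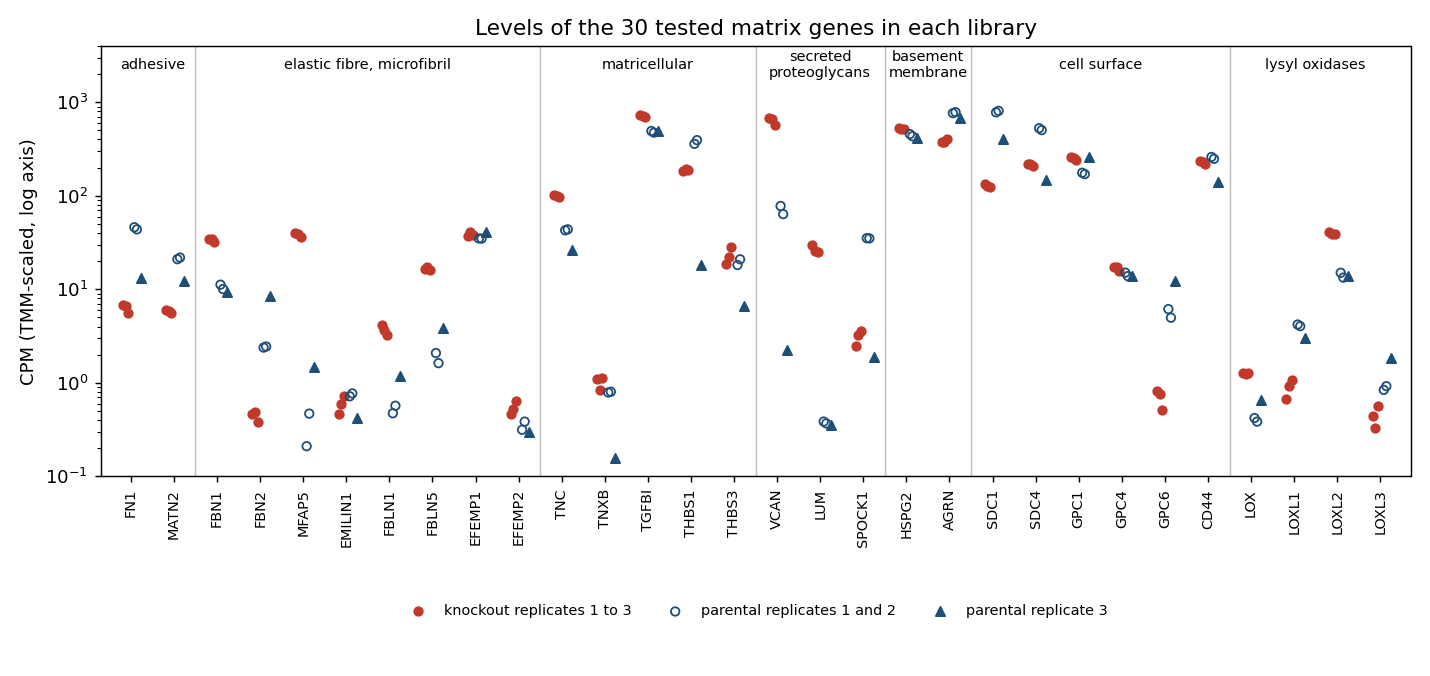
The y axis gives CPM on a log scale for each library and the x axis the 30 tested matrix genes, ordered by role. Filled circles are knockout libraries, open circles parental replicates 1 and 2, and triangles parental replicate 3, which lies far below the other parental libraries for VCAN, THBS1 and SPOCK1.

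Among the secreted proteoglycans 1 of 3 tested genes rose, and VCAN and SPOCK1 did not pass. That is 33.3% called, near the 27.6% of all genes. Versican showed the widest difference of mean CPM of the 44 genes, and the call depended on parental replicate 3. VCAN, a large chondroitin sulfate proteoglycan that binds hyaluronan (chromosome 5, 83471465 to 83582303), was measured at 677, 657 and 571 CPM in knockout replicates 1 to 3 and 77.8, 63.6 and 2.25 CPM in parental replicates 1 to 3. The groups did not overlap, and the low value of parental replicate 3 was 31.4-fold under the mean of the other parental libraries. With all libraries the gene did not pass (log2 fold change 3.73, SE 1.11, edgeR adjusted p = 0.0519). It passed without parental replicate 3 (3.12, SE 0.11, edgeR adjusted p = 3.47e-07), and by DESeq2 (adjusted p = 0.00561) and limma-voom (adjusted p = 0.0377, log2 fold change 4.82). These were the only 3 of the 13 alternatives in which VCAN passed, and in the others its edgeR adjusted p reached 0.123. Its share of all reads on the 44 genes was 17.5% ± 1.14 in the knockout and 1.16% ± 0.952 in the parental group (SD, n = 3). An annotated antisense gene, VCAN-AS1, shares 3.05% of its exon bases.

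Lumican had the smallest adjusted p of the 30 tested matrix genes. LUM, a small leucine-rich proteoglycan that spaces collagen fibrils (chromosome 12, 91102629 to 91111831), stood at 29.5, 25.9 and 24.99 CPM across the knockout libraries and 0.385, 0.368 and 0.352 CPM across the parental ones. Here parental replicate 3 matched the rest of its group, and the 2 groups were widely apart. The gene rose 72.4-fold (log2 fold change 6.18, SE 0.16, edgeR adjusted p = 8.98e-06) and passed in every alternative fit, with adjusted p up to 0.00140. Its relatives were hardly read. DCN, decorin, which neighbours LUM on chromosome 12, had 13, 9 and 10 reads in knockout replicates 1 to 3 and 8, 5 and 0 reads in parental replicates 1 to 3, a ratio of 2.49 (95% counting interval 1.27 to 5.16). FMOD, fibromodulin, had 24 reads over the knockout group and 1 over the parental group, a ratio of 24.2 (95% counting interval 3.95 to 996), and BGN, biglycan, had at most 1 read in any library. These 3 were not tested. SPOCK1, a testican that carries heparan and chondroitin sulfate chains (chromosome 5, 136975298 to 137598379), was measured at 2.49, 3.21 and 3.62 CPM in knockout replicates 1 to 3 and 35.2, 35.0 and 1.88 CPM in parental replicates 1 to 3. Parental replicates 1 and 2 were about alike and high, and parental replicate 3 was under all 3 knockout libraries. SPOCK1 did not pass with all libraries (log2 fold change -2.95, SE 0.97, edgeR adjusted p = 0.0701). It passed by DESeq2 (adjusted p = 0.00129) and not by limma-voom (adjusted p = 0.291), and of the 13 alternatives the only other one it passed was without parental replicate 3, where it fell 11.6-fold without parental replicate 3 (edgeR adjusted p = 3.22e-09).

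LUM, MFAP5, DCN and POSTN are also expressed by fibroblasts, so markers of other cell types were read beside them. THY1 and DPT had no read in any library, PI16 and PDGFRA had at most 2 reads in any, and of the 4 of 10 markers that could be tested COL3A1 rose, COL1A1 fell, and FAP and COL6A3 did not pass. COL1A1 lost its call when any one of the knockout replicates was left out. The summed level of the 10 markers was 29.1, 28.1 and 31.3 CPM across the knockout libraries and 39.3, 46.6 and 110.4 CPM across the parental ones, so the sum was lower in the knockout. The median log2 fold change of the 4 tested markers was 0.84, the other way. Without parental replicate 3, 2 of these 4 rose and 1 fell, in a fit that called 61.6% of all genes. The 5 smooth muscle markers summed to 269, 268 and 261 CPM across the knockout libraries and 34.8, 37.2 and 14.7 CPM across the parental ones, nearly all of it from TAGLN, while MYH11 and CNN1 stayed under 0.25 CPM. TAGLN and DES rose (log2 fold changes 3.70 and 2.86, edgeR adjusted p = 0.0170 and 0.0359) and ACTA2 did not pass. Neither passed when any one of the knockout replicates was left out, 1 of the 3 tested passed without parental replicate 2, and 3 of 4 tested rose without parental replicate 3. The part of these smooth muscle genes in the matrix results was not tested. Endothelial markers summed to at most 1.77 CPM and haematopoietic ones to at most 1.26 CPM in any library, and PTPRC had no read. Of 6 endothelial markers, CDH5 rose among the 3 tested, but none rose without knockout replicate 1 or 3, without parental replicate 1 or with the replicate number as a block, and without parental replicate 3, 2 rose and 2 fell. Of 5 haematopoietic markers LYZ and CD79A fell among the 3 tested, and a filter of at least 1 CPM in 3 libraries left them untested. Mesothelial markers summed to 36.9, 35.1 and 34.5 CPM across the knockout libraries and 39.0, 37.4 and 41.5 CPM across the parental ones, almost all from CALB2. WT1 had no read, and none of the 3 mesothelial markers tested passed, though 2 fell without parental replicate 3.

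Among the matricellular genes, whose products modulate how cells engage the matrix, 2 of 5 tested rose and 3 did not pass. That is 40.0% called, beside 27.6% of all genes. TGFBI, an adhesion protein induced by TGF-beta (chromosome 5, 136028895 to 136063818), was the most abundant matrix gene of the knockout per kilobase, at 91.7 ± 2.72 CPM per kb against 62.5 ± 1.66 in the parental group (SD, n = 3). Its libraries stood at 739, 713 and 696 CPM across the knockout libraries and 493, 473 and 498 CPM across the parental ones, without overlap, and with parental replicate 3 like the others of its group. The rise was 1.47-fold (log2 fold change 0.55, SE 0.10, edgeR adjusted p = 0.00897). It did not pass without knockout replicate 1 or 2 (edgeR adjusted p = 0.0590 and 0.0591) or with the replicate number as a block (edgeR adjusted p = 0.0630). TNC, tenascin-C, a large hexameric glycoprotein of remodelling tissue (chromosome 9, 115019578 to 115118257), was measured at 102, 98.7 and 96.3 CPM in knockout replicates 1 to 3 and 42.7, 43.7 and 26.4 CPM in parental replicates 1 to 3. All knockout libraries were above the parental ones, of which replicate 3 was the lowest, and TNC rose (log2 fold change 1.40, SE 0.21, edgeR adjusted p = 0.00429).

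Thrombospondin-1 was the gene most divided within the parental group after VCAN. THBS1, a trimeric glycoprotein that binds CD36 and CD47 and activates latent TGF-beta (chromosome 15, 39581079 to 39599466), stood at 185, 191 and 189 CPM across the knockout libraries. In the parental libraries it stood at 359, 393 and 18.2 CPM, so replicates 1 and 2 lay above the knockout and replicate 3 was 20.6-fold under their mean and below all 3 knockout libraries. With all libraries no difference could be called (log2 fold change -0.45, SE 0.92, edgeR adjusted p = 0.758), and the sign turned to 0.46 by limma-voom. Without parental replicate 3 it fell 2.06-fold (log2 fold change -1.05, edgeR adjusted p = 3.03e-09). THBS3, a pentameric relative, stood at 18.9, 22.3 and 28.5 CPM across the knockout libraries and 18.2, 20.9 and 6.63 CPM across the parental ones and passed in no fit. It shares 25.4% of its exon bases with genes on the other strand, MTX1 among them, and the strand setting of the counting is not given, so its reads are uncertain. TNXB, tenascin-X, at 1.10, 0.834 and 1.13 CPM in knockout replicates 1 to 3 and 0.788, 0.803 and 0.158 CPM in parental replicates 1 to 3, passed in no fit either. Part of TNXB is duplicated in the pseudogene TNXA, with which it can exchange reads. SPARC, POSTN and THBS2, 3 matricellular genes typical of stroma, had at most 3 reads in any library.

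The window before the start site of THBS1 is printed with those of 2 syndecans, SDC1 and SDC4, as an example of a gene that fell (SDC1) and of genes whose call turned on parental replicate 3 (SDC4 and THBS1). They were chosen after their values were seen, among members whose window overlaps no annotated exon, and other members meet the same conditions. Each is the 250 bases before the RefSeq start (GRCh38.p14, 5′ to 3′ on the gene's strand), THBS1 at chr15:39580829-39581078 on the plus strand, and SDC1 at chr2:20225476-20225725 and SDC4 at chr20:45348425-45348674 on the minus strand. Capitals mark a match to one of 4 motifs, searched on both strands.
THBS1: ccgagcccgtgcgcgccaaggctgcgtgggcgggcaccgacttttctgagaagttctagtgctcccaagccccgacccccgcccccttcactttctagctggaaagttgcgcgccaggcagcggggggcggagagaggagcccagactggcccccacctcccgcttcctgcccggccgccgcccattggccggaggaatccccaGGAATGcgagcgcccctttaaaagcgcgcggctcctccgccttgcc
SDC1: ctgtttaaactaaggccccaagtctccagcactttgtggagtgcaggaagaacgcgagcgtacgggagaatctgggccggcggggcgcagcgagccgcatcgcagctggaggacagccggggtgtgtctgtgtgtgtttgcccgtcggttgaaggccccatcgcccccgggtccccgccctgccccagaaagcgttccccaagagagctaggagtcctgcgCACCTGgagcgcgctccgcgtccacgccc
SDC4: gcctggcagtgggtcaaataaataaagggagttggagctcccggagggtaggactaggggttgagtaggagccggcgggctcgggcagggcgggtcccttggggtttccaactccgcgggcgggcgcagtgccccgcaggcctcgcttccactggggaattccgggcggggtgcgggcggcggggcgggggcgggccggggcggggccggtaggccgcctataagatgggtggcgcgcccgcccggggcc
THBS1 held 1 match to the TEAD motif GGAATG, from 46 to 41 bases before the start, and SDC1 held 1 match to the E2 box CAGGTG, read as CACCTG, from 29 to 24 bases before it. SDC4 held no match to the TEAD motif, the E2 box, the AP-1 motif TGANTCA or TATAAA. Of the 44 genes, 32 matched a window in the RefSeq table. A TEAD match was in 5 of these 32 (15.6%) against 11.9% of all 35116 windows of that length, and an E2 box in 4 (12.5%) against 17.5%. The AP-1 motif was in 2 (6.25%) against 6.57%, and TATAAA in 4 (12.5%) against 10.7%. Most of the 32 windows overlap annotated exons in part, and those of SPARC, VCAN, FMOD, CD44 and LOXL1 lie wholly in exons. The RefSeq start of SDC1 also differs from its GENCODE start at 20225433. Such matches describe letters in these windows and not binding.

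At the cell surface, syndecan-1 was lower in the knockout and 2 of 6 tested genes fell, with none rising and 4 not passing. That is 33.3% called, near the 27.6% of all genes. SDC1, the epithelial syndecan (chromosome 2, 20200797 to 20225433), was the most abundant of all the matrix genes in the parental line per kilobase, at 184 ± 63.1 CPM per kb, and stood at 35.6 ± 1.22 in the knockout (SD, n = 3). Its level was 133, 126 and 125 CPM across the knockout libraries and 779, 809 and 402 CPM across the parental ones. Parental replicate 3 lay between its group and the knockout, and the groups did not overlap. SDC1 fell 5.18-fold (log2 fold change -2.37, SE 0.28, edgeR adjusted p = 0.00187). SDC4, the syndecan of focal adhesions (chromosome 20, 45325288 to 45348424), was measured at 219, 220.0 and 209.6 CPM in knockout replicates 1 to 3 and 528, 503 and 146 CPM in parental replicates 1 to 3. Parental replicates 1 and 2 were above the knockout and replicate 3 below it, and the gene did not pass (log2 fold change -0.86, SE 0.46, edgeR adjusted p = 0.220). Without parental replicate 3 it fell (log2 fold change -1.30, SE 0.04, edgeR adjusted p = 6.16e-11). SDC2, the syndecan of mesenchymal cells, had at most 2 reads in any library and was not tested.

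Glypicans, which are held on the membrane by a lipid anchor, split by gene. GPC6 (chromosome 13, 93226842 to 94407401) stood at 0.813, 0.762 and 0.513 CPM across the knockout libraries and 6.14, 4.97 and 12.2 CPM across the parental ones, low in the former and highest in parental replicate 3. It fell 11.1-fold (log2 fold change -3.48, SE 0.42, edgeR adjusted p = 0.00205). GPC1, at 257, 252 and 239.6 CPM in knockout replicates 1 to 3 and 176, 170.4 and 262 CPM in parental replicates 1 to 3, did not pass with all libraries (log2 fold change 0.30, edgeR adjusted p = 0.287). Its parental replicate 3 lay above the knockout libraries and the other parental ones below them. Without that library it rose 1.39-fold (edgeR adjusted p = 1.05e-06). GPC4, at 17.4, 17.3 and 15.6 CPM across the knockout libraries and 15.1, 13.8 and 13.9 CPM across the parental ones, passed in no fit. CD44 (chromosome 11, 35138870 to 35232402), the hyaluronan receptor, was measured at 233, 230.4 and 219.8 CPM in knockout replicates 1 to 3 and 260.0, 249 and 141 CPM in parental replicates 1 to 3. Parental replicate 3 was the lowest of all 6, and the gene did not pass (log2 fold change 0.07, SE 0.24, edgeR adjusted p = 0.850). Without that library the sign turned and CD44 fell by a small amount (log2 fold change -0.21, SE 0.04, edgeR adjusted p = 9.88e-04). THBS1, SPOCK1, SDC4 and CD44 shared one order, with parental replicates 1 and 2 above every knockout library and parental replicate 3 below them.

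The 2 large basement membrane proteoglycans were abundant in both groups, and 1 of them, AGRN, fell while HSPG2 did not pass. AGRN, agrin, a heparan sulfate proteoglycan first known from the neuromuscular junction (chromosome 1, 1020123 to 1056118), stood at 377, 373 and 405 CPM across the knockout libraries and 764, 784 and 672 CPM across the parental ones. The groups were well separated, and AGRN fell 1.92-fold (log2 fold change -0.94, SE 0.12, edgeR adjusted p = 0.00197). HSPG2, perlecan (chromosome 1, 21822245 to 21937297), stood at 528, 519 and 522 CPM in knockout replicates 1 to 3 and 456, 433 and 419 CPM in parental replicates 1 to 3, with all knockout libraries above the parental ones. It did not pass (log2 fold change 0.26, SE 0.10, edgeR adjusted p = 0.101), and passed without parental replicate 3 with a rise of 1.14-fold (edgeR adjusted p = 0.00213). LDLRAD2 on the other strand shares 11.7% of the exon bases of HSPG2. The nidogens, which bridge laminin and collagen IV, were close to the limit of detection. NID1 had 6, 5 and 5 reads in knockout replicates 1 to 3 and 11, 8 and 1 reads in parental replicates 1 to 3, a ratio of 0.808 (95% counting interval 0.391 to 1.64), and NID2 had 10 reads over the knockout group and 2 over the parental group, a ratio of 5.05 (95% counting interval 1.08 to 47.4). RTRAF on the other strand shares 29.96% of the exon bases of NID2.

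Both adhesive glycoproteins fell. FN1, fibronectin, the glycoprotein that integrins assemble into fibrils (chromosome 2, 215360440 to 215436172), stood at 6.80, 6.62 and 5.58 CPM across the knockout libraries and 46.1, 43.7 and 13.3 CPM across the parental ones. Every parental library was above the knockout, and replicate 3 was 3.38-fold under the mean of the other parental libraries. FN1 fell 5.43-fold (log2 fold change -2.44, SE 0.47, edgeR adjusted p = 0.0117). FN1 did not pass when any one of the knockout replicates was left out (edgeR adjusted p = 0.0532, 0.0537 and 0.0627). MATN2, a matrilin that forms filaments in several tissues (chromosome 8, 97868840 to 98036716), was measured at 5.99, 5.82 and 5.58 CPM in knockout replicates 1 to 3 and 21.0, 21.8 and 12.2 CPM in parental replicates 1 to 3, again with the lowest parental value in replicate 3. It fell 3.16-fold (log2 fold change -1.66, SE 0.24, edgeR adjusted p = 0.00400) and passed in every alternative fit.

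The lysyl oxidases, copper enzymes that oxidise lysines of collagen and elastin, moved apart, with LOX and LOXL2 rising, LOXL1 and LOXL3 falling, and LOXL4 not tested. LOXL2, which also acts on collagen IV (chromosome 8, 23297189 to 23425328), stood at 40.7, 38.8 and 38.6 CPM across the knockout libraries and 15.02, 13.3 and 13.8 CPM across the parental ones. The libraries of each group lay close together, and LOXL2 rose 2.80-fold (log2 fold change 1.49, SE 0.10, edgeR adjusted p = 2.18e-04). LOX (chromosome 5, 122063195 to 122078360) was far lower, at 1.27, 1.25 and 1.27 CPM in knockout replicates 1 to 3 and 0.420, 0.385 and 0.650 CPM in parental replicates 1 to 3, and rose 2.61-fold (log2 fold change 1.38, SE 0.25, edgeR adjusted p = 0.00939). LOXL1, which is tied to elastin (chromosome 15, 73925989 to 73952137), stood at 0.671, 0.925 and 1.08 CPM across the knockout libraries and 4.20, 4.03 and 3.01 CPM across the parental ones, without overlap. LOXL1, with 9.21% of its exon bases shared with the antisense gene LOXL1-AS1, fell 4.20-fold (log2 fold change -2.07, SE 0.25, edgeR adjusted p = 0.00205). LOXL3, at 0.442, 0.327 and 0.563 CPM in knockout replicates 1 to 3 and 0.840, 0.920 and 1.83 CPM in parental replicates 1 to 3, fell (log2 fold change -1.42, edgeR adjusted p = 0.0407), with its highest value in parental replicate 3. LOXL3 no longer passed when any one of the knockout replicates or parental replicate 2 was left out (edgeR adjusted p = 0.0551 to 0.146), and LOXL3 shares 19.3% of its exon bases with DOK1 and HTRA2 on the other strand. LOXL4 had at most 4 reads in any library.

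Summed over the 44 genes, the level changed less than its makeup. The sums were 3711, 3644 and 3529 CPM across the knockout libraries and 4152, 4134 and 2733 CPM across the parental ones, so parental replicates 1 and 2 were the highest and parental replicate 3 the lowest. Secreted proteoglycans summed to 709.6, 687 and 600.1 CPM across the knockout libraries and 114, 99.0 and 4.48 CPM across the parental ones. VCAN alone gave 677, 657 and 571 CPM of the knockout sums and 77.8, 63.6 and 2.25 CPM of the parental ones. The cell-surface sum went the other way. It was 1764, 1749.7 and 977 CPM across the parental libraries and 861, 846 and 810.0 CPM across the knockout ones. SDC1 gave 779, 809 and 402 CPM of the parental sums and 133, 126 and 125 CPM of the knockout ones. SDC4, which did not pass, gave 528, 503 and 146 CPM and 219, 220.0 and 209.6 CPM of these. GPC6 also fell, at a low level. GPC1, GPC4 and CD44 had a higher mean CPM in the knockout, and none of them passed with all libraries. The lysyl oxidase sum was 42.0 ± 0.955 CPM over the knockout libraries and 19.5 ± 0.911 CPM over the parental ones (SD, n = 3). LOXL2 alone gave 39.4 ± 1.17 and 14.1 ± 0.866 CPM of these, while LOXL1 and LOXL3 fell. Per kilobase of exon the order in the parental group was SDC1, SDC4, AGRN, TGFBI and GPC1, and in the knockout TGFBI, SDC4, VCAN, GPC1 and AGRN. In the parental group SDC1 and SDC4, at 150.2 ± 81.7 CPM per kb for the latter, overlapped within 1 SD, as did AGRN at 68.8 ± 5.57 and TGFBI at 62.5 ± 1.66, while GPC1 stood lower at 31.1 ± 7.84. Within libraries, SDC1 was above SDC4 in every parental one, while AGRN was under TGFBI in parental replicate 3. In the knockout TGFBI and SDC4, the latter at 82.7 ± 2.21 CPM per kb, were more than 1 SD apart, and VCAN at 42.8 ± 3.80, GPC1 at 38.3 ± 1.40 and AGRN at 35.8 ± 1.62 each overlapped their neighbour within 1 SD. Within libraries, VCAN was above GPC1 in every knockout one, while GPC1 was under AGRN in knockout replicate 3. SDC1, next in order, overlapped AGRN at 35.6 ± 1.22 and was above it in knockout replicates 1 and 2. These sums and orders are descriptions and were not tested.

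**Figure D3:**
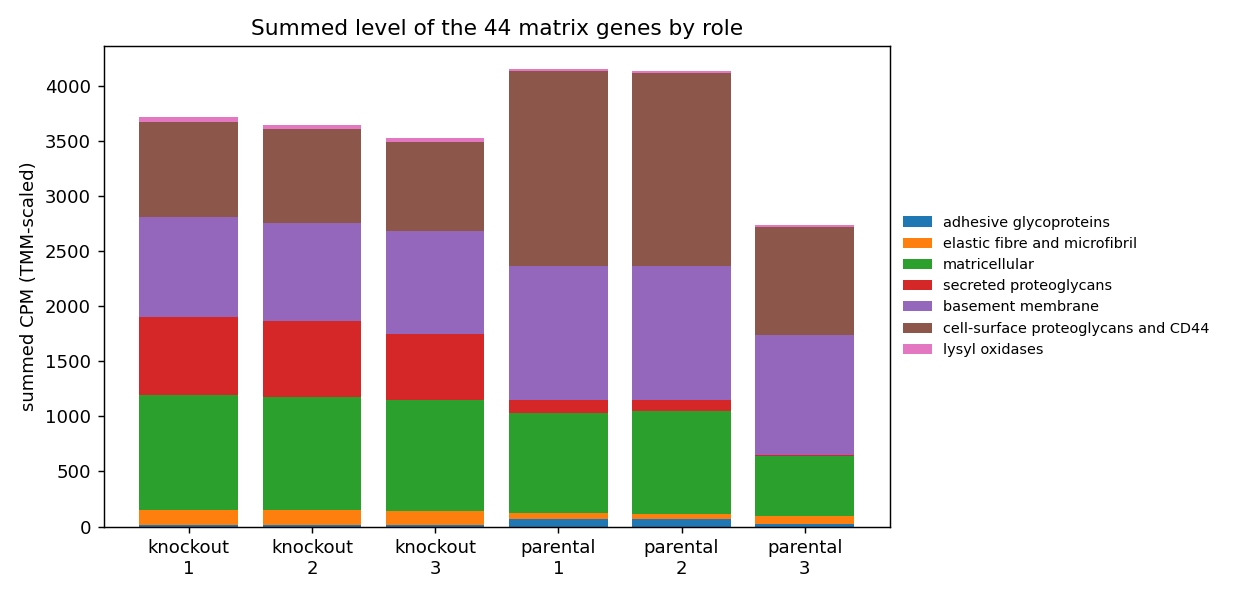
Each bar is 1 library and its height the summed CPM of the 44 matrix genes, divided by role. The secreted proteoglycan part reached 709.6 CPM in knockout replicate 1 and 4.48 CPM in parental replicate 3. VCAN alone gave 677 and 2.25 CPM of these.

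Parental replicate 3 differed from the mean of the other parental libraries by at least 2-fold for 13 of the 30 tested matrix genes, 7 lower and 6 higher, or 23.3% and 20.0%. Over all genes tested, the shares were 12.9% and 11.1%. The 7 lower genes were VCAN, THBS1, SPOCK1, TNXB, SDC4, FN1 and THBS3, from 31.4-fold to 2.95-fold. MFAP5, FBN2, FBLN1, GPC6, LOXL3 and FBLN5 were higher, from 4.35-fold to 2.06-fold. When this library was left out, FN1 fell 7.34-fold (5.43-fold with it), GPC6 8.27-fold (11.1-fold) and LOXL3 2.03-fold (2.68-fold). FBLN1 then rose 6.79-fold (4.93-fold with it) and FBLN5 8.72-fold (6.66-fold). What sets this library apart was not tested.

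The core proteins need sugar chains, so the enzymes that build and modify glycosaminoglycans were read beside them. Of 41 such genes, 37 were tested, 7 rose, 7 fell and 23 did not pass, or 37.8% called beside 27.6% of all genes, with a median log2 fold change of 0.19. CHST3, the chondroitin 6-O-sulfotransferase, rose from 46.2 ± 8.13 to 168 ± 5.73 CPM (SD, n = 3, log2 fold change 1.86, edgeR adjusted p = 4.02e-04). CSGALNACT1, which starts chondroitin chains, rose from 37.4 ± 1.21 to 111 ± 1.97 CPM (1.57, edgeR adjusted p = 1.06e-04). EXTL2, a transferase of the exostosin family, rose by 0.95 on the log2 scale (edgeR adjusted p = 0.00167). The other risers were CHST14, CHSY3, SULF1 and UST, and the fallers beyond the 3 below were HS6ST2, HS6ST1, DSEL and HS3ST3B1, all named after their values were seen. HS3ST1, which adds the 3-O-sulfate of the antithrombin site in heparan sulfate, fell from 23.2 ± 4.83 to 0.720 ± 0.0218 CPM (-5.01, SE 0.22, edgeR adjusted p = 5.64e-05). HS6ST3, a heparan sulfate 6-O-sulfotransferase, changed by -2.76 (edgeR adjusted p = 0.00703), and SULF2, which removes 6-O-sulfates outside the cell, by -1.46 (edgeR adjusted p = 0.00806). In the fit without parental replicate 3, 15 rose and 13 fell where 61.6% of all genes changed, and with any other library left out 5 to 7 rose and 5 to 6 fell. Over all genes the count fell to as few as 2692 in such fits, from 4912.

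**Figure D4:**
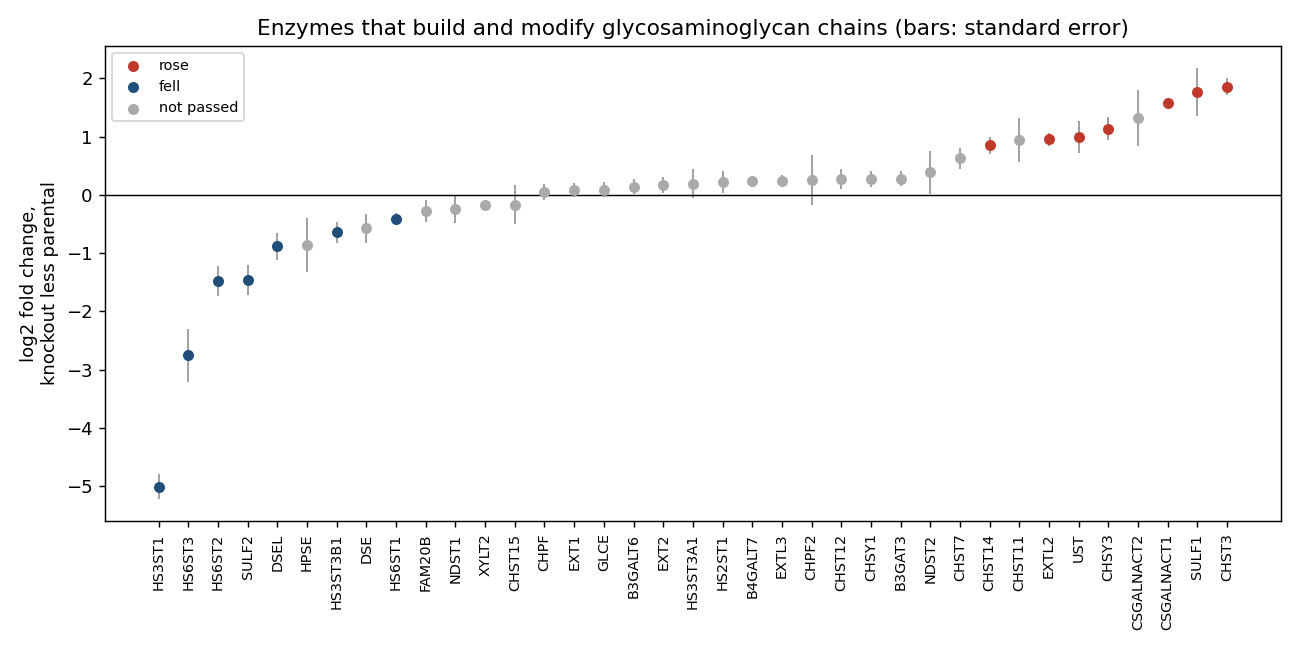
The y axis gives the log2 fold change (knockout less parental) with its standard error, for the 37 tested enzymes of glycosaminoglycan chains on the x axis. Red points rose, blue points fell and grey points did not pass, and HS3ST1 at -5.01 and CHST3 at 1.86 are the ends of the range.

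Among 38 relatives of the matrix genes in the same families, 15 were tested, 6 rose, 3 fell and 6 did not pass, or 60.0% called beside 27.6% of all genes. MATN3, a matrilin of cartilage, rose from 1.32 ± 0.191 to 11.4 ± 0.472 CPM (SD, n = 3, log2 fold change 3.11, edgeR adjusted p = 9.74e-05). SMOC1, a SPARC-related calcium-binding protein of basement membranes, rose from 80.6 ± 33.9 to 299 ± 7.46 CPM (1.89, edgeR adjusted p = 0.00876). Its paralog SMOC2 had 2 reads over the knockout group and 152 over the parental group, a ratio of 75.3, with 95% counting limits of 20.5 to 627, and fell (edgeR adjusted p = 5.32e-04). Of the 4 latent TGF-beta binding proteins tested, which are related to the fibrillins, LTBP4 rose by 1.18 on the log2 scale (edgeR adjusted p = 0.00147) and LTBP3 changed by -0.83 (edgeR adjusted p = 0.0243). LTBP1 and LTBP2, at 0.72 and 1.45, did not pass (edgeR adjusted p = 0.0749 and 0.0611) and rose without parental replicate 3 (edgeR adjusted p = 3.22e-05 and 4.27e-09). BCAN, a lectican of brain, changed by -2.20 (edgeR adjusted p = 0.00183). Without parental replicate 3, 18 relatives were tested, of which 10 rose and 5 fell where 61.6% of all genes changed, and with any other library left out 4 to 6 rose and 2 to 3 fell. Over all genes the count fell to as few as 2692 in such fits, from 4912. The other risers, HMCN1, SPOCK2 and GPC2, were named after their values were seen.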

How the data were processed

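RNA-seq was measured in 3 SMARCA4 knockout and 3 parental libraries of H2122. The deposited files hold raw read counts per gene symbol, and the submitters' processing notes name hg38 as the genome build, TopHat2 2.1.1 and HTSeq 0.11.0 for the authors' steps. For the annotation release and the strand setting, the sources used here give no value. The 5 classes of unassigned reads held 13.8% to 15.3% of each file's reads and were left out.

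In R 4.3.3, edgeR 4.0.16 served for the filter on low counts (default filterByExpr), TMM factors and the two-sided quasi-likelihood test with robust dispersion and group as the sole term, with Benjamini-Hochberg adjustment over 17809 genes and a threshold of 0.05. The standard error was derived from the F value. Positions, exon lengths and shared exon bases are from GENCODE 29 (GRCh38), matched by symbol, and start-site windows from RefSeq (GRCh38.p14). The fit was tested on simulated data. Ratios of reads of genes near the limit of detection carry an exact 95% counting interval.

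The members, their roles and the lists of related genes and markers were chosen with earlier results of these data known, and their counts are therefore no independent evidence. Named are all members, part of the markers, and in each related list up to 3 genes passing in each direction with the smallest adjusted p. The other markers are given only within sums and counts. LTBP1, LTBP2 and the genes marked as named after their values were seen are named besides. TMEM2 of the hyaluronan list was read under its current symbol CEMIP2. Alternatives tried were other scaling factors (RLE, upper quartile), every gene kept or a minimum of 1 CPM in 3 libraries, other tools (DESeq2 1.42.0 and limma 3.58.1 with voom), the replicate number as a block, and each library left out in turn.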

Additional observations from a re-analysis of the deposited data

How the results depend on the processing

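Of the 17 matrix genes called, 13 passed in the same direction in all 13 alternatives that tested them, and FN1, FBN2, TGFBI and LOXL3 lost the call in at least 1. Of the 13 not called, VCAN, SPOCK1, THBS1, SDC4, GPC1, HSPG2 and CD44 passed in at least 1, each of them without parental replicate 3, and 6 in none. CD44 reversed without parental replicate 3, from 0.07 to -0.21, in a range of -0.21 to 0.22 with one library left out. With one library left out, between 14 and 24 matrix genes changed, 8 to 12 rising and 5 to 12 falling, where the lowest count of 5 falling came without knockout replicate 3. Over all genes the counts were 2692 to 11325, with 1221 to 5665 rising and 1471 to 5660 falling, and the highest came without parental replicate 3. Deviations of same-numbered libraries from their group means correlated at -0.05, -4.24e-05 and -0.07 across genes, so no pairing by replicate number was seen. Parental replicate 3 stood far from its group and weighs on every parental deviation, so this check cannot exclude pairing. With the replicate block 3040 genes changed, 1378 rising and 1662 falling, and 16 of the 17 matrix genes remained called, TGFBI being the exception. Scaling by RLE or upper-quartile factors kept all 17 calls, as did no filter, DESeq2 and limma-voom, and the stricter filter kept the 16 it tested. The members' median log2 fold change ranged from 0.18 to 0.28 with one library left out. At this depth the 14 matrix genes not tested had at most 13 reads in a library, so no more than their counting intervals can be stated, and with 3 libraries a group small changes of tested genes can be missed.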

Other observations

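Hyaluronan is the ligand of CD44 and of versican, and of 10 genes of its axis 7 were tested, of which 2 rose, 2 fell and 3 did not pass, or 57.1% called beside 27.6% of all genes. Without parental replicate 3, 5 rose and 2 fell, in a fit that called 61.6% of all genes. The counts depended on the libraries. With any one of the knockout libraries or parental replicates 1 and 2 left out, 1 rose and at most 1 fell. Without knockout replicate 2 or 3 none fell, so HAS3 and CEMIP, described below, did not pass there. Over all genes the count fell to as few as 2692 in such fits, from 4912. HAS2, a hyaluronan synthase, stood at 15.2, 15.8 and 14.8 CPM across the knockout libraries and 0.525, 0.402 and 0.176 CPM across the parental ones. The groups were widely apart, and HAS2 rose (log2 fold change 5.37, SE 0.38, edgeR adjusted p = 2.58e-04). HAS3, another synthase, fell, at 2.103, 1.58 and 1.67 CPM in knockout replicates 1 to 3 and 5.57, 6.38 and 3.34 CPM in parental replicates 1 to 3 (log2 fold change -1.51, edgeR adjusted p = 0.0106). CEMIP, which takes part in hyaluronan breakdown, was measured at 7.76, 8.71 and 8.11 CPM across the knockout libraries and 68.4, 75.0 and 12.1 CPM across the parental ones, with its lowest parental value in replicate 3, and fell (log2 fold change -2.66, edgeR adjusted p = 0.0267). The hyaluronidase gene HYAL2 rose by 0.62 on the log2 scale (edgeR adjusted p = 0.0325).

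Of 18 genes that mature collagen or assemble fibronectin, all were tested, and 5 rose, 1 fell and 12 did not pass, or 33.3% called, close to the 27.6% of all genes. Without parental replicate 3, 12 rose and 3 fell, in a fit that called 61.6% of all genes. With any other library left out, 3 to 4 rose and at most 1 fell, and as few as 2692 of all genes changed, against 4912. PLOD2, the lysyl hydroxylase of collagen telopeptides, stood at 335, 341 and 316 CPM in knockout replicates 1 to 3 and 61.8, 54.9 and 40.3 CPM in parental replicates 1 to 3 and rose (log2 fold change 2.66, edgeR adjusted p = 2.29e-04). P4HA3, a subunit of prolyl 4-hydroxylase, was measured at 50.7, 47.4 and 46.3 CPM across the knockout libraries and 1.77, 1.96 and 0.984 CPM across the parental ones and rose by 4.94 (edgeR adjusted p = 1.30e-04). FAM20C, a kinase of secreted proteins, stood at 54.1, 49.8 and 49.6 CPM in knockout replicates 1 to 3 and 2.91, 3.41 and 0.932 CPM in parental replicates 1 to 3 and rose by 4.40 (edgeR adjusted p = 0.00136). TLL1, a protease that trims procollagen and the precursor of LOX, was near the limit of detection, with 3, 0 and 1 reads in knockout replicates 1 to 3 and 14, 15 and 13 reads in parental replicates 1 to 3, and fell (edgeR adjusted p = 0.0123). The other risers, ITGA5 and ITGAV, subunits of fibronectin receptors, were named after their values were seen, at log2 fold changes of 0.54 and 1.39 (edgeR adjusted p = 0.0324 and 0.0366).

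Within a role, the share of a gene in the length-scaled level is given below for 6 genes, chosen after their values were seen, as a description without a test. LOXL2 made up 92.2% ± 1.07 of the lysyl oxidase level in the knockout and 63.8% ± 1.09 in the parental group, and LOXL1 3.28% ± 0.800 and 26.7% ± 4.30 (SD, n = 3). MFAP5 held 38.3% ± 1.32 of the elastic fibre and microfibril level in the knockout and 1.53% ± 1.24 in the parental group, and EFEMP1 37.6% ± 1.37 and 82.5% ± 2.90. The level of EFEMP1 itself did not pass (log2 fold change 0.07, edgeR adjusted p = 0.691), and its share depends on the other genes of the role. SDC1 held 19.5% ± 0.404 of the cell-surface level in the knockout and 47.5% ± 1.88 in the parental group, with 45.6%, 47.6% and 49.3% in the parental libraries, so parental replicate 3 kept the SDC1 share of its group while its SDC4 share was 24.7% against 42.5% and 40.8%.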
